A study of Mus musculus with 3 samples.

Results

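The nuclear genes of the mitochondrial respiratory chain were followed through a differentiation of mouse embryonic stem (ES) cells towards liver. Every gene probe was taken whose gene name on the array began with Nduf, Uqcr, Cox4i, Cox5, Cox6, Cox7, Cox8 or Atp5, or was Sdha, Sdhb, Sdhc or Sdhd. This gave 118 probes of 84 genes, out of 28577 gene names with a value on all arrays. By textbook assignment 35 of these genes encode subunits of complex I, 4 of complex II, 7 of complex III, 19 of complex IV and 15 of complex V, with the factor Cox7a2l counted under complex IV. The other 4 were caught by their names and are assembly factors: Ndufaf1, Ndufaf2, Atp5s (now Dmac2l) and Atp5sl (now Dmac2).

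The cells were of the mouse line E14.1, and the 3 samples were successive stages of 1 protocol. The ES cells (day 0) were grown on gelatin in serum-free N2/B27 medium with 1000 U/ml LIF and 10 ng/ml BMP4, which keep them undifferentiated. At day 5, named definitive endoderm in the labels, they had been moved to collagen IV with 30 ng/ml activin A and without LIF or BMP4. At day 7, named early hepatic cells, 30 ng/ml BMP4 and 10 ng/ml bFGF had been added to the activin A for 2 more days. The study asked how expression changes along this route, on which the factor Foxa2 appears. Each stage was measured on 1 Cy3 array, so nothing below has a replicate, a test or a standard error, and each difference is between 2 arrays of whole cultures, in which fewer cells of a type and less RNA per cell cannot be told apart.

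The respiratory chain is a set of protein complexes in the inner mitochondrial membrane. Complexes I and II feed electrons from NADH and from succinate to ubiquinone, complex III passes them to cytochrome c, and complex IV (cytochrome c oxidase) passes them to oxygen. Complexes I, III and IV pump protons, and complex V (ATP synthase) uses the gradient to make ATP. A few subunits of the pumping complexes and of ATP synthase are encoded in mitochondrial DNA and all others in the nucleus. Several nuclear subunits of complex IV exist as tissue isoforms: Cox6a2, Cox7a1 and Cox8b are known from heart and skeletal muscle, Cox4i2 from lung, and Cox6b2, Cox7b2 and Cox8c from testis. Early embryos and naive ES cells are known to use both oxidative phosphorylation and glycolysis, and hepatocytes are rich in mitochondria.

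The isoforms are where these data differ most between genes, so the bases just upstream of a pair of testis isoforms are shown first, beside those of Sdhd, a subunit made in all tissues. Each line is the 250 bases before the gene's start in RefSeq, build GRCm38.p6, all on the minus strand and read 5′ to 3′. The capitals mark a match to the motif of NRF1 and a match to that of GABPA, transcription factors known for binding in front of respiratory chain genes. Cox7b2 was taken at chr5:71548206-71548455, Cox6b2 at chr7:4753095-4753344 and Sdhd at chr9:50603850-50604099.
Cox7b2: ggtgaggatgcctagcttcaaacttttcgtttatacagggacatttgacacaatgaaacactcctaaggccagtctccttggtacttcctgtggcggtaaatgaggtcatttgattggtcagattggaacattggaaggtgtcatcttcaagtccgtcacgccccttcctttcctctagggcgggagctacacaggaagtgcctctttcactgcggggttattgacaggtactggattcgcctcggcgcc
Cox6b2: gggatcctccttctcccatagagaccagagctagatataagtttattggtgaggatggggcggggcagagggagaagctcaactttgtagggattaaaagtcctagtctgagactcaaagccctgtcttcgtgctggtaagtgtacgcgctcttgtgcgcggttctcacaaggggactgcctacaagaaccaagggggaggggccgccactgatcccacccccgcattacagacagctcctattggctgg
Sdhd: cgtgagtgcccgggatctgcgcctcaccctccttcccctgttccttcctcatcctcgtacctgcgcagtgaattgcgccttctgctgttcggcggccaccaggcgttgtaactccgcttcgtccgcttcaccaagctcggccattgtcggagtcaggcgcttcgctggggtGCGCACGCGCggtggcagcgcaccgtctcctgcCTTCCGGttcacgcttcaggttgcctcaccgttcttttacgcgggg
The Sdhd stretch holds 27 CG pairs, against 9 in that of Cox7b2 and 8 in that of Cox6b2. Sdhd is not typical here: over 300 bases, with the 50 after the start added, it had 29, where the median of 70 respiratory chain genes was 19.

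What the arrays measured is the hybridisation of labelled RNA to 60-base probes, and 3 probes that lie in coding sequence are shown for the genes described most below. They belong to Atp5g1 (mm9, chr11:95934924-95934983, minus strand), one of 3 genes for the same ATP synthase subunit c, to Cox4i1 (chr8:123197924-123197983, plus strand), the common form of its subunit, and to Cox7a1 (chr7:30970337-30970948, plus strand), a muscle isoform, whose 60 bases are split by an intron between those coordinates.
Atp5g1: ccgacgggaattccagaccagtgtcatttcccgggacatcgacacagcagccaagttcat
Cox4i1: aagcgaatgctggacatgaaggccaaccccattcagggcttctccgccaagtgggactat
Cox7a1: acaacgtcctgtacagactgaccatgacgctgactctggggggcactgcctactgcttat
Of the 84 genes, 57 had 1 probe and 27 had 2 or more. By their coordinates 18 of the probes used cross an intron.

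Values are normalised log2 signals, the log2 processed intensity of a probe minus the 75th percentile of its array, so that 0 is that percentile and a difference of 1 is 2-fold. Of 43379 gene spots on each array, 70.9% to 71.7% exceeded background clearly by the extraction software's mark, and the median SD of log2 signal among repeated spots of 1 probe on 1 array was 0.08. That spread is technical and covers neither labelling nor culture. The stages carried the markers of their labels: all 8 ES cell markers were at least 2-fold lower at days 5 and 7 than at day 0, all 8 endoderm markers were at least 2-fold higher at both, and 7 of 8 hepatic markers were at least 2-fold higher at day 7. Among the hepatic markers, only Alb did not reach 2-fold at day 7, when it was not well above background (-7.52). At day 5, 6 of the 8 hepatic markers were already at least 2-fold higher than at day 0. Between days 5 and 7, 5 of them were at least 2-fold higher and 1, Hhex, was 5.05-fold lower. All 8 fibroblast markers were also at least 2-fold higher at day 7 than at day 0, and their summed signal went from 0.500 to 4.64 and 20.5 times the 75th percentile.

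Respiratory chain genes gave strong signals at every stage and, in the scaling used here, most of them were slightly lower after day 0. With the normexp fit on all spots most were not lower. With quantile normalisation, described below, 45 of 81 lay below 0 at day 5, beside 53.6% of all genes. At day 7, 52 did, beside 53.7%. The authors' deposited table gave the same counts, beside 53.4% and 53.6% of all genes. Of the 84 genes, 83 were well above background on at least 1 array and 81 on all 3, and 79 lay above the 75th percentile on each day, where 37.3% to 37.7% of the 21652 genes compared did. None was at least 2-fold higher at day 5 than at day 0, where 16.5% of all genes were, and 4 were at least 2-fold lower, where 16.1% of all genes were. At day 7 against day 0 none was 2-fold higher, against 16.2% of all genes, and 6 were 2-fold lower, against 19.1%. Between days 5 and 7 no member reached 2-fold in either direction, against 5.97% of all genes higher and 8.38% lower. As a share, fewer of these genes than of all genes passed 2-fold in each comparison, but that share also varied with signal. Among all genes with a mean log2 signal of 4 to 6, 13.7%, 16.3% and 1.68% were 2-fold lower in the 3 comparisons. From 6 to 9 the shares were 2.15%, 4.14% and 0.0%. Most respiratory chain genes were this bright, so the shares over all genes are not matched for signal.

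The common shift was small. Among the 81 genes measured on all arrays, the median difference was -0.30 at day 5 and -0.41 at day 7 against day 0, and -0.10 between days 5 and 7. The medians of all genes compared were -0.13, -0.20 and -0.09. Below 0 were 69 of the 81 genes at day 5 (56.2% of all genes measured on both arrays), 74 at day 7 (58.9%) and 56 between days 5 and 7 (59.6%). At 1.5-fold, 15 genes were lower at day 5 (27.6% of all genes) and 23 at day 7 (32.9%), while 1 was higher on each day (24.0% and 23.8%).

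**Figure D1:**
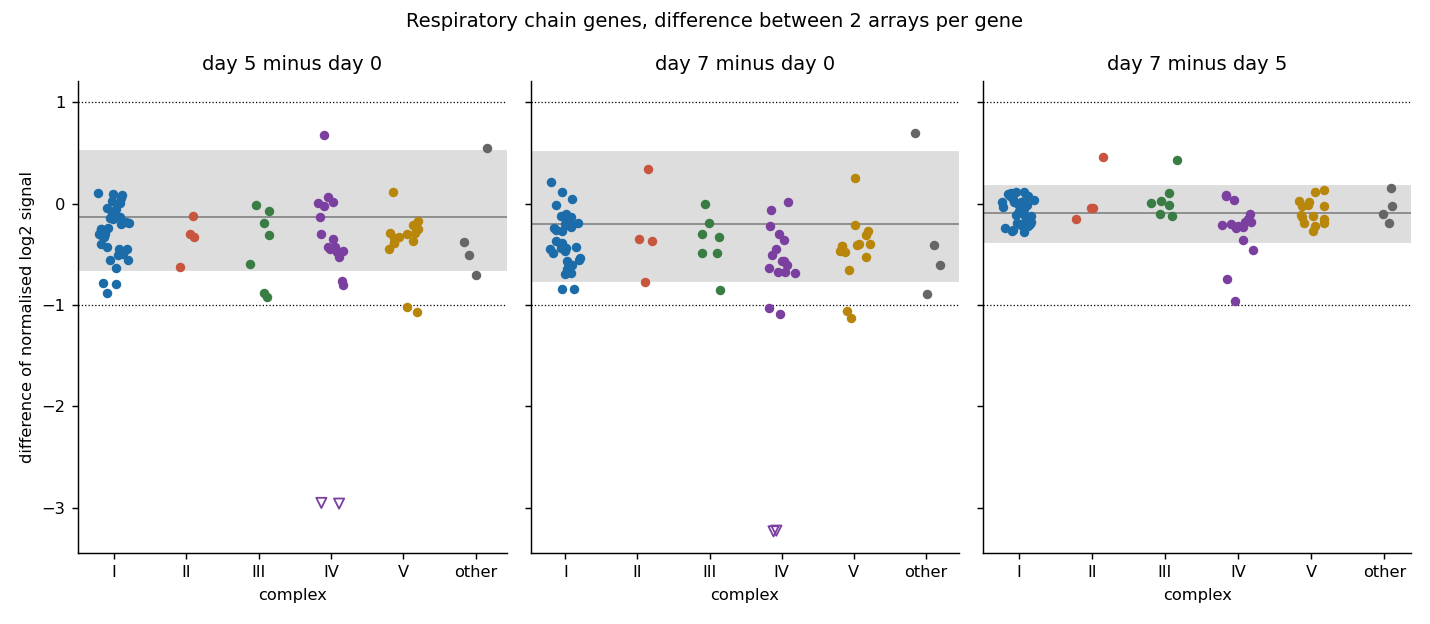
Difference of normalised log2 signal between 2 arrays (y axis) for each respiratory chain gene, grouped by complex (x axis; "other" holds the 4 assembly factors), in 1 panel per comparison. The grey band is the middle 50% of all genes measured on both arrays, the grey line their median and the dotted lines 2-fold; open triangles are upper limits for Cox7b2 and Cox8c. Most points lie inside the band and below 0 in the left and middle panels, with medians of -0.30 and -0.41. These become -0.03 and -0.07 with quantile normalisation and 0.36 and 0.08 with the normexp background correction.

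The size of that shift depended on the signal and on the scaling. Bright genes in general were lower after day 0: in the class with a mean log2 signal of 4 to 6, the median was -0.36 over 994 genes and -0.30 over the 47 respiratory chain genes among them at day 5. At day 7 the medians in that class were -0.46 over 989 genes and -0.38 over 45 respiratory chain genes. In the brightest class, from 6 to 9, the respiratory chain genes had medians of -0.43 (13 genes) at day 5 and -0.50 (14 genes) at day 7, beside -0.28 and -0.51 over 279 and 266 genes. In the class from 2 to 4, the respiratory chain genes had medians of -0.32 (16 genes) at day 5 and -0.41 (15 genes) at day 7. Over all 2837 and 2836 genes of that class the medians were -0.22 and -0.24. The bright genes as a whole thus also lay below 0, less far than the respiratory chain genes in some classes and further in others. With quantile normalisation, which makes the arrays' distributions equal, the median of the respiratory chain genes was -0.03 at day 5 and -0.07 at day 7, and in the authors' deposited table it was -0.03 and -0.08. It changed sign, to 0.36 and 0.08, with the normexp background correction, and back to -0.31 and -0.41 when that correction was refitted without 6 aberrant spots. By complex, the normexp fit on all spots put the day 5 medians above 0, from 0.24 for complex II to 0.41 for complex V, and the day 7 medians of complexes I, II, III and V above 0, with complex IV at -0.07. Setting the normexp fit on all spots aside, 46 of 83 genes lay below 0 in all other settings at day 5 and 52 at day 7. The same share over all genes was not counted, so these counts do not set the respiratory chain genes apart.

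**Figure D2:**
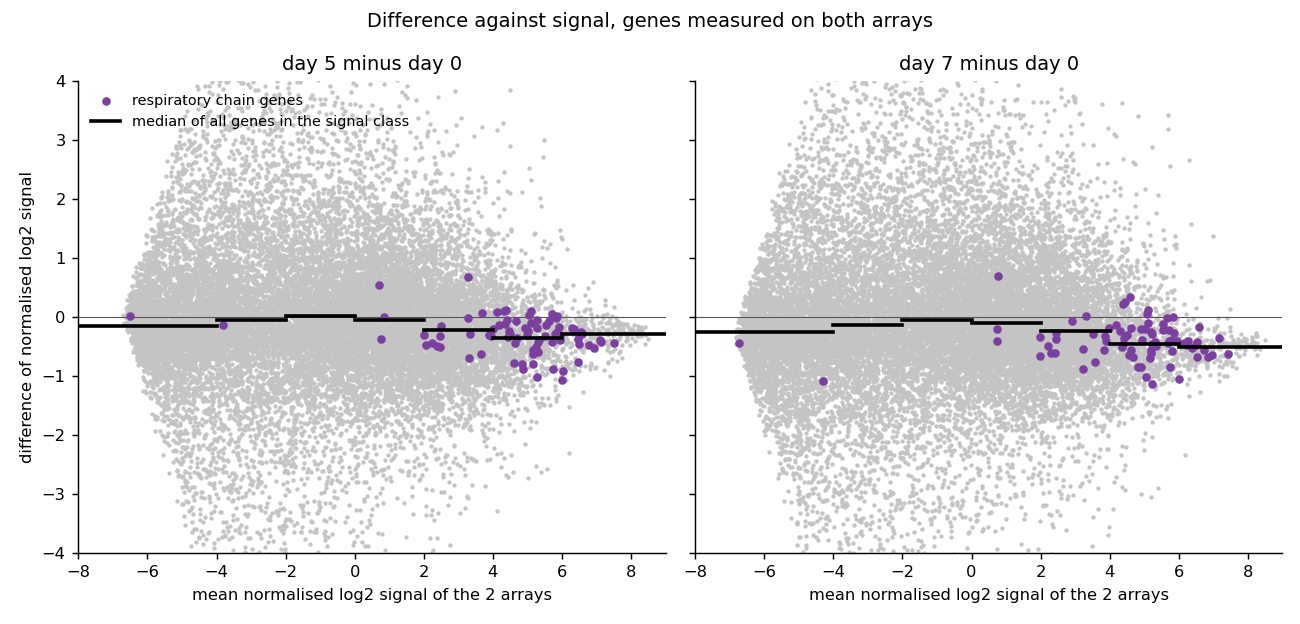
Difference of normalised log2 signal (y axis) against the mean normalised log2 signal of the 2 arrays (x axis), with respiratory chain genes in purple, all other genes in grey and the median of all genes in each signal class as a black line. The y axis ends at 4 on both sides and leaves out genes beyond it. The purple points lie mostly to the right, around a black line that is itself at -0.36 and -0.46 in the class from 4 to 6.

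**Figure D3:**
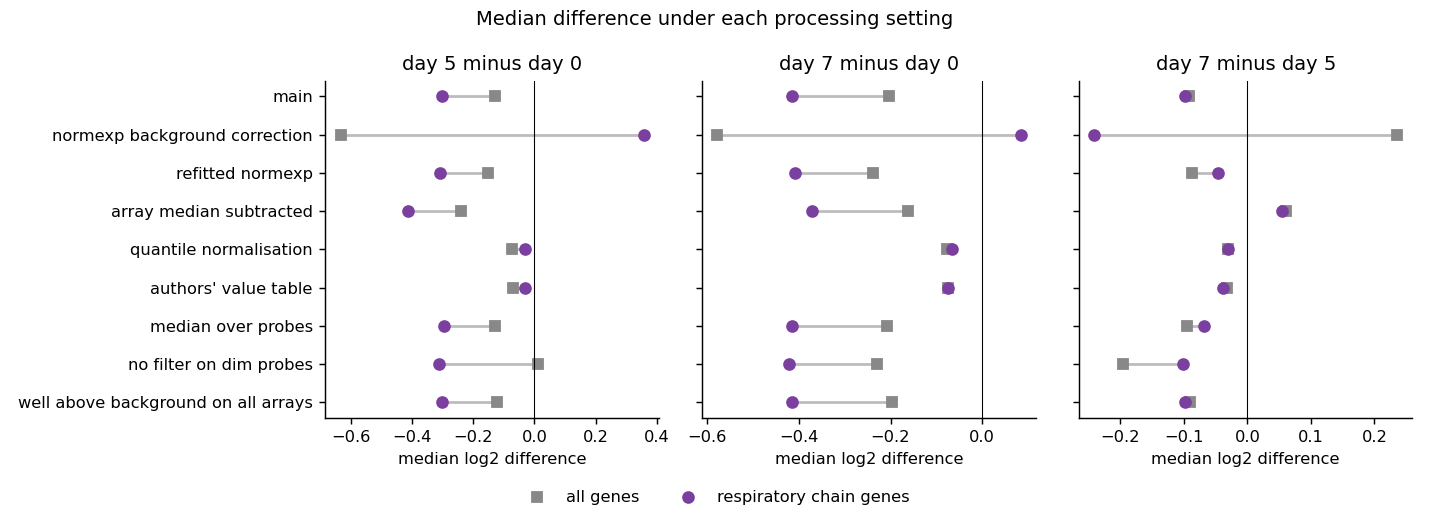
Median log2 difference (x axis) of the respiratory chain genes (purple circles) and of all genes compared (grey squares) under each processing setting (y axis), in 1 panel per comparison. The purple circles are at -0.30 and -0.41 in the setting used here, near 0 with quantile normalisation and the authors' table, and above 0 with the normexp fit on all spots; between days 5 and 7 subtracting the array median puts the circle at 0.05.

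The clearest exceptions were the testis isoforms Cox7b2 and Cox8c, which were detected in ES cells and no longer after them. Cox7b2 is the testis form of a small subunit of complex IV (its probe lies at chr5:71834459-71894699 of mm9, minus strand, across an intron). Its signal was -3.81 at day 0 and -8.10 and -8.99 at days 5 and 7, both not well above background. It was therefore at least 7.74-fold lower at day 5 and at least 9.36-fold lower at day 7, taking the lowest well-measured signal of the dim array as its ceiling. Cox8c, the testis form of subunit VIII (chr12:104138678-104138736, plus strand), had signals of -3.80, -8.98 and -9.29. It was at least 7.78-fold lower at day 5 and at least 9.41-fold lower at day 7. Both genes were weak at day 0 and dim on both later arrays, a pattern shared by 4.24% of all genes compared. With refitted normexp values the day 5 limits shrank to log2 differences of -1.43 for Cox7b2 and -1.68 for Cox8c. The day 7 limits shrank to 3.55-fold and 3.50-fold with those values and to 3.32-fold and 3.30-fold with the normexp fit on all spots. Both genes stayed beyond 2-fold in the 8 settings that gave a value. They entered the comparison through day 0 alone, so a difference below 0 was fixed by the filter. Requiring a signal well above background on all arrays left them out.

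The common forms of the same subunits stayed bright. Cox7b had 5.51, 5.08 and 4.90 on days 0, 5 and 7, and Cox8a had 7.20, 6.67 and 6.52. Their differences of -0.61 and -0.68 at day 7 are near the median of complex IV. Cox8b, the muscle form of Cox8a, was not well above background on any array (-6.72, -8.97 and -9.23), so that it gave no comparison.

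Other germ line genes were also lower after day 0, though most were still detected. All 10 germ line markers examined were well above background at day 0; 9 were at least 2-fold lower at day 5 and 10 at day 7, with a summed signal of 14.7, 1.88 and 0.814 times the 75th percentile, and 8 were still well above background at day 5 and 7 at day 7. Mael, a piRNA pathway gene, had 1.86, -3.49 and -6.62. Of the 8 genes of late testis germ cells, 6 were well above background on every day, their summed signal was 4.65, 0.489 and 0.310, and only Ldhc and Cyct were 2-fold lower. Cyct, the testis form of cytochrome c, is itself in that list and was its brightest gene at day 0, so the sum is not independent of it. It went from 1.65 to -3.40 and -5.75, which is 33.1-fold and 170-fold lower. Slc25a31, the testis form of the carrier that exchanges ADP for ATP, was at -2.73 at day 0 and not well above background later, at least 15.8-fold and 19.8-fold lower. Thus the testis forms of a cytochrome c, of an ADP/ATP carrier and of a pair of complex IV subunits were all highest in the ES cells. Whether the germ line genes as a whole play a part in the result for Cox7b2 and Cox8c was not tested.

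Cox6b2 did not follow them. This testis form of subunit VIb had 3.29, 3.27 and 3.31 on days 0, 5 and 7, which is a range of 0.04, below the spot SD of 0.08. Its common form Cox6b1 had 2.31, 1.83 and 1.64 and was 1.59-fold lower at day 7. The difference of Cox6b2 ranged over the settings from -0.13 to 0.56 at day 5 and from 0.02 to 0.47 at day 7, so no setting brought it to 2-fold.

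**Figure D4:**
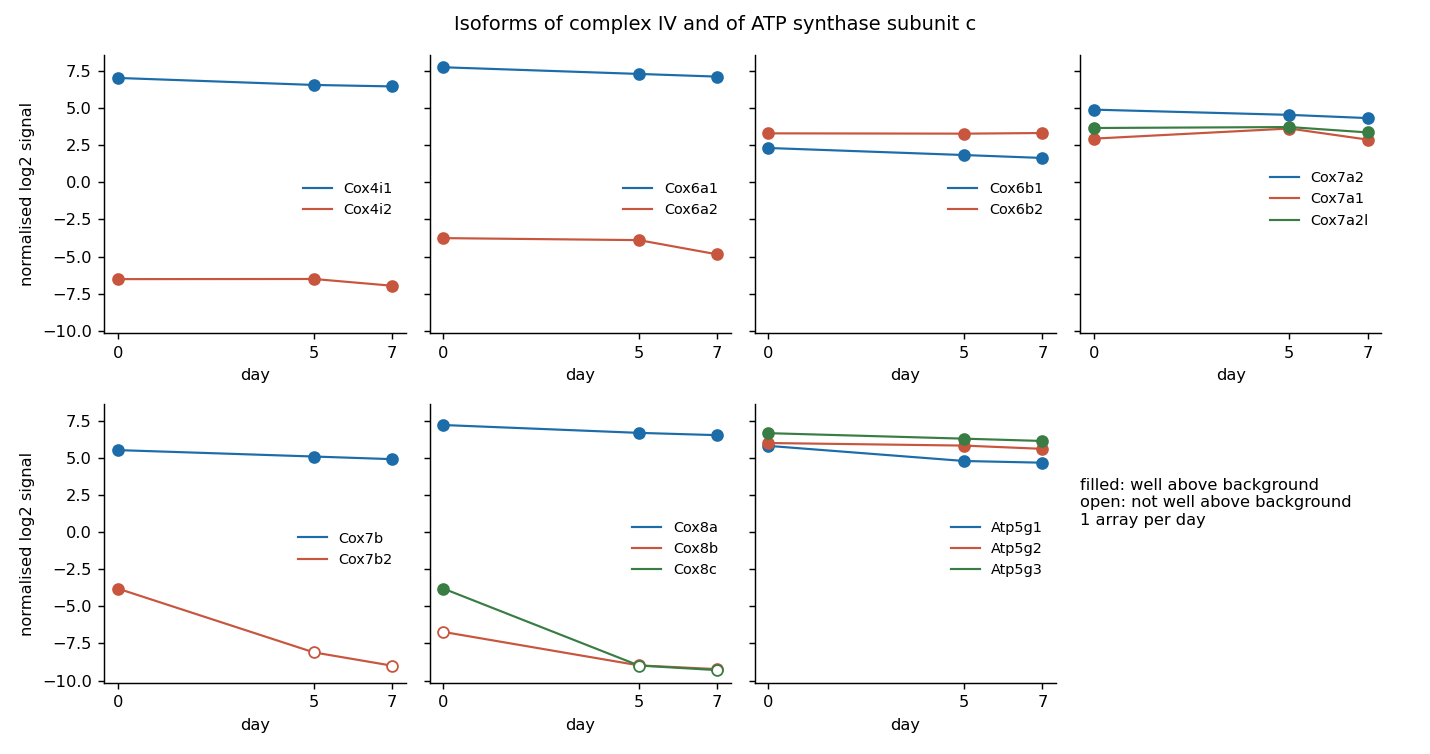
Normalised log2 signal (y axis, 0 is the 75th percentile of the array) against day (x axis) for isoforms of complex IV and for the 3 genes of ATP synthase subunit c, 1 array per day. Filled points are well above background and open points are not; levels of different probes are not comparable, only each line's course. Cox7b2 and Cox8c turn from filled at about -3.8 to open at days 5 and 7, while Cox6b2 stays between 3.27 and 3.31.

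The muscle isoforms moved in no common direction. Cox7a1 had 2.94 at day 0, 3.62 at day 5 and 2.87 at day 7, so the middle array was high and the outer ones alike. It was 1.60-fold higher at day 5 than at day 0, the largest increase of any member there, and 1.68-fold lower at day 7 than at day 5. Over the settings the day 5 difference ranged from 0.57 to 1.32, above 2-fold only with the planned normexp correction. The common form Cox7a2 was lower at each stage, with 4.89, 4.54 and 4.32. Cox7a2l, which joins complexes III and IV into supercomplexes, had 3.65, 3.72 and 3.35, a difference of -0.36 between days 5 and 7.

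Cox6a2 was weak, with -3.76, -3.89 and -4.85, and was 2.13-fold lower at day 7 than at day 0. That difference of -1.09 was -0.73 with refitted normexp values and -0.99 in the authors' deposited table, below 2-fold. Cox6a1, the common form, was among the brightest probes, with 7.74, 7.29 and 7.11. Cox4i2, the lung isoform of subunit IV, was close to the detection limit at -6.51, -6.50 and -6.96, and its differences of day 5 from day 0 and of day 7 from day 5 changed sign with the normexp fit on all spots. The common Cox4i1 had 7.02, 6.55 and 6.45, 1.48-fold lower at day 7.

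Markers of heart and skeletal muscle were measured beside these isoforms. The 12 cardiac markers were all well above background on every day, with a summed signal of 8.84, 33.8 and 12.8 times the 75th percentile. Myl7, an atrial myosin light chain that gave most of that sum at day 5, had 2.49, 4.86 and 2.70, and without it the sum was 3.21, 4.77 and 6.30. Of the 12, 3 were highest at day 0, 3 at day 5 and 6 at day 7. The 10 skeletal muscle markers summed to 3.87, 1.00 and 2.03, lowest at day 5. Mylpf, the brightest of them at day 0, had 1.425, -1.37 and -1.14. The sums of the pericyte and smooth muscle markers were 16.6, 39.5 and 48.7, with Acta2 the brightest at days 0 and 7 and Notch3 at day 5. What part any of these cells has in the signal of Cox7a1 or Cox6a2 was not tested.

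The 11 common subunits of complex IV had medians of -0.45 at day 5 and -0.61 at day 7. Cox6c, a small subunit that spans the membrane, was the lowest of them. Its signals of 5.57, 4.77 and 4.54 were lower at each stage, and it was 1.74-fold lower at day 5 and 2.04-fold lower at day 7. That call of 2-fold was lost with quantile normalisation (-0.66), with the authors' deposited table (-0.66) and with array medians subtracted (-0.98). Cox5a and Cox5b sit on the matrix side of the complex. Cox5a had 6.86, 6.09 and 6.18 and Cox5b 7.35, 6.92 and 6.99, both lower at day 5 and not lower still at day 7. Cox7c, another small common subunit, had 4.61, 4.31 and 4.11. Ndufa4, named for complex I but now known as a complex IV subunit, was nearly level with 5.83, 5.85 and 5.61. For complex IV as a whole, 16 genes had a median of -0.39 at day 5 and -0.57 at day 7, which was -0.10 and -0.19 with quantile normalisation, where complex II had -0.20 and -0.24.

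Complex V held the other 2-fold calls. ATP synthase consists of a catalytic head of alpha, beta, gamma, delta and epsilon subunits and a membrane ring of c subunits. The alpha subunit Atp5a1 had 6.53 at day 0 and 5.46 and 5.47 at days 5 and 7, so the ES cell array was the high one. It was 2.10-fold lower at day 5 and 2.08-fold lower at day 7, but its other probe gave -0.24 and -0.36. The beta subunit Atp5b, which carries the catalytic sites, had 7.28, 6.89 and 6.63, and the gamma subunit Atp5c1 had 6.74, 6.45 and 6.26. The delta subunit Atp5d was the exception of the head, with 4.31, 4.43 and 4.56, 1.19-fold higher at day 7. Atp5d lay above 0 at day 7 in all settings, with a range of 0.25 to 0.75.

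The 3 genes of subunit c encode the same mature protein behind different import signals. Atp5g1, whose probe is shown above, had 5.79, 4.78 and 4.66 and was 2.02-fold lower at day 5 and 2.19-fold lower at day 7. Atp5g2 had 5.99, 5.81 and 5.59, and Atp5g3 had 6.65, 6.28 and 6.12. The difference of Atp5g1 at day 7 was thus -1.13 beside -0.39 for Atp5g2 and -0.53 for Atp5g3. With quantile normalisation the values for Atp5g1 were -0.71 at day 5 and -0.78 at day 7, under 2-fold. How far the Atp5g1 probe binds RNA of the other 2 genes was not tested. The 15 genes of complex V had medians of -0.33 and -0.41, and -0.01 and -0.03 with quantile normalisation.

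Complex I showed small shifts without a 2-fold call. Its 7 core subunits named here, which carry the flavin, the iron-sulphur clusters or the quinone site, had medians of -0.33 and -0.49, and its 28 accessory subunits -0.22 and -0.37. Ndufs1, the largest subunit, was the lowest core gene with 5.24, 4.45 and 4.40, 1.73-fold lower at day 5 and 1.79-fold at day 7. Ndufv1, which binds NADH, had 4.87, 4.42 and 4.22. Ndufs3 had 4.07, 4.16 and 3.88, the only core gene above 0 at day 5. Among the accessory subunits Ndufb6 was the lowest with 5.32, 4.43 and 4.47, and Ndufa5, with 5.00, 4.22 and 4.32, followed at day 5 and Ndufb4, with 5.50, 5.00 and 4.81, at day 7. The highest differences were those of Ndufb7 at day 5 (5.04, 5.15 and 5.16) and Ndufa3 at day 7 (4.27, 4.37 and 4.48), both under 1.2-fold. All 35 genes together had medians of -0.24 and -0.38, of which 29 and 32 lay below 0. The day 5 median turned to 0.02 with quantile normalisation, 0.03 in the authors' deposited table and 0.37 with the normexp fit on all spots.

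In complex II, the only one with no mitochondrially encoded subunit, the members separated. Sdhb, the iron-sulphur subunit, was lower at both stages with 3.97, 3.34 and 3.20, 1.71-fold at day 7. The flavoprotein subunit Sdha had 2.17, 1.87 and 1.82, and the membrane anchor Sdhc had 2.63, 2.31 and 2.27. The other anchor, Sdhd, had 4.41, 4.29 and 4.75, so the day 7 array was the highest. Sdhd was 1.27-fold higher at day 7 than at day 0 and 1.37-fold higher than at day 5, the largest increase of any member between days 5 and 7. Its difference lay above 0 in all settings, from 0.34 to 0.85 against day 0 and from 0.29 to 0.61 against day 5.

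Complex III likewise held low and level genes. Uqcrc1, a core protein of the matrix side, had 6.18, 5.30 and 5.33, 1.84-fold lower at day 5 and 1.80-fold at day 7. Its partner Uqcrc2 had 5.37, 5.18 and 5.08, and the Rieske iron-sulphur protein Uqcrfs1 had 4.71, 4.64 and 4.52. Uqcrq, a small subunit beside cytochrome b, had 6.48 at day 0 and 5.57 at day 5, with day 7 in between: it was 1.89-fold lower at day 5 and then 1.35-fold higher at day 7 than at day 5. Its second probe gave -0.74 at day 5 and 0.06 between days 5 and 7. Uqcrh, the hinge protein that contacts cytochrome c1, was level at 5.83, 5.82 and 5.83. Uqcr (now Uqcr11) had 5.59, 5.00 and 5.11, and Uqcrb 4.03, 3.72 and 3.70. All 7 lay below 0 at days 5 and 7 against day 0, with medians of -0.31 and -0.33 that became -0.04 and -0.02 with quantile normalisation.

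The 4 assembly factors did not move together. Ndufaf2, a chaperone of complex I, had 3.66, 2.96 and 2.77, 1.85-fold lower at day 7, and Ndufaf1 had 2.72, 2.21 and 2.11. Atp5s was the highest member against day 0 at day 7, with 0.43, 0.98 and 1.13, 1.62-fold higher. Its second probe gave 0.06 at day 5 and 0.12 at day 7. Atp5sl had 0.94, 0.56 and 0.53.

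Where a gene had several probes they mostly agreed. Over 25 genes with 2 or more probes measured on both arrays, the median range among probes was 0.17 at day 5, 0.15 at day 7 and 0.10 between days 5 and 7. Probes of Atp5j2, Ndufb2, Ndufb8 and Ndufc1 differed by over 2-fold. The lowest and highest day 7 values were -1.42 and -0.21 for Atp5j2, -0.47 and 1.07 for Ndufb2, -0.44 and 1.18 for Ndufb8 and -0.51 and 0.85 for Ndufc1. For Ndufb2, Ndufb8 and Ndufc1 another probe has the opposite sign, so the direction is that of the probe used. Both probes of Atp5j2 lay below 0 against day 0 and differed in size. In each of the 4 genes the differing probe was far weaker than the one used, for Ndufb2 -4.18 against 5.44 at day 0. Within 2-fold, probes of Ndufab1 (-0.15 to 0.74) and Ndufs5 (-0.12 to 0.36) also differed in sign at day 7.

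Genes that work with the chain were examined by role. Of the genes in mitochondrial DNA the array named CYTB (7.58, 7.56 and 7.41), the cytochrome b of complex III, and COX2 (8.14, 7.85 and 7.77), a catalytic subunit of complex IV, and both were under 2-fold. Among the electron carriers and coenzyme Q enzymes, 19 genes compared, 1 was 2-fold higher and 4 were 2-fold lower at day 7, where 16.2% and 19.1% of all genes were. Besides Cyct the lower ones were Cyc1, the cytochrome c1 of complex III (5.79, 4.98 and 4.69), Pdss1, which makes the coenzyme Q side chain (1.88, 0.53 and 0.46), and Coq3. Etfdh, which feeds electrons from fatty acid oxidation to ubiquinone, was the higher one, with 1.75, 2.76 and 3.28, 2.88-fold at day 7. Slc25a4, the ADP/ATP carrier of muscle and heart, had 5.02, 6.26 and 6.17, 2.36-fold higher at day 5 and 2.21-fold at day 7, opposite to Slc25a31.

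In the assembly and biogenesis lists most genes were under 2-fold. Of 14 assembly factors of complex I none was 2-fold higher and 3 were 2-fold lower at day 7, near the 19.1% of all genes that were lower: Ecsit (3.89, 2.46 and 2.32), Foxred1 and Nubpl. Of 30 factors of complexes II to V none was higher and 2 were lower at day 7, Cox18 (2.83, 1.41 and 1.56), which inserts a mitochondrially made subunit into the membrane, and Sco1, a copper chaperone. Of 17 regulators of mitochondrial biogenesis and mitochondrial DNA, Pprc1, a coactivator of the PGC-1 family, was lower (4.57, 3.21 and 3.29) and Polg, the mitochondrial DNA polymerase, higher (1.17, 1.71 and 2.22) at day 7. The median of the regulators was -0.52 at day 5 and -0.68 at day 7. None of the 14 genes of the TCA cycle reached 2-fold on either day. The 15 hypoxia response genes, included as genes of low oxygen, held 3 that were 2-fold higher (16.2% of all genes were) and 1 that was 2-fold lower at day 7, the lower one being Pdk1 (2.67, 0.07 and -0.91), a kinase that limits the entry of pyruvate into mitochondria.

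**Figure D5:**
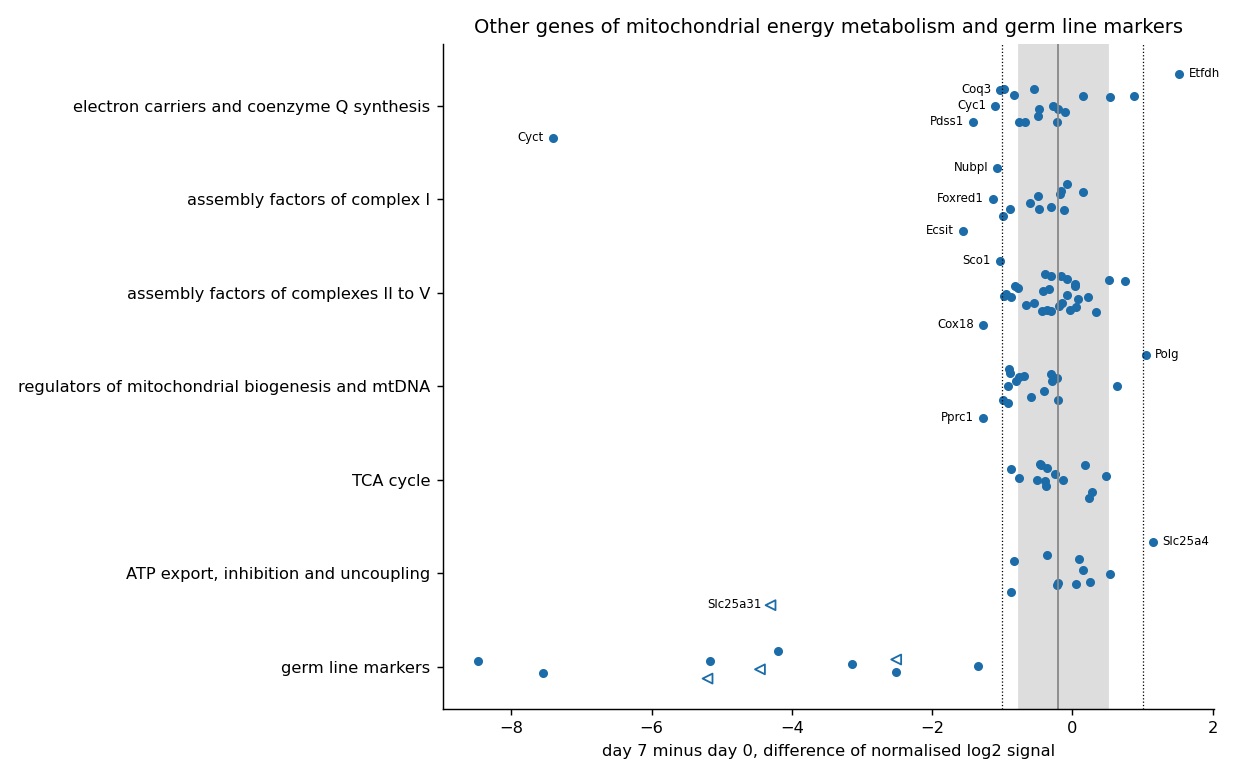
Difference of normalised log2 signal between day 7 and day 0 (x axis) for genes of 6 lists of mitochondrial energy metabolism and for 10 germ line markers (y axis, points spread vertically for legibility). The grey band is the middle 50% of all genes, the dotted lines are 2-fold, and open triangles are upper limits of genes not well above background at day 7. Cyct and Slc25a31 lie among the germ line markers, far left of the other energy genes, and Etfdh, Slc25a4 and Polg lie beyond 2-fold on the right.

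The promoters of the respiratory chain genes differed as a group from those of all genes in features that the choice by name did not use. In RefSeq's GRCm38.p6 table, 70 of the 84 genes had an entry, and windows ran from 250 bases before to 50 bases after the start. On either strand, the NRF1 motif (GCGCA, any base, then GCGC) was found in 24.3% of these genes and in 5.19% of all 27025 genes in the table. The GABPA motif CCGGAAG was found in 24.3% against 9.93%, and the YY1 motif AAGATGGC in 15.7% against 3.19%. At least 1 of the 3 motifs, which could overlap each other, was present in 39 of 70 genes, 55.7% against 16.4%. The median number of CG pairs in the window was 19 against 8. The NRF1 and GABPA motifs themselves contain CG, and the shares were not compared at equal numbers of CG pairs. Cox7b2 and Cox6b2 had 10 each, Cox7a1 had 7 and Cox8b had 2, fewer than the median of the members, but so had the common subunit Cox7b with 5. A match is only a match of letters, and no binding was measured here.

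A few genes of the same complexes stood under clone names in the files and so outside the choice by name. Ndufv3 had 4.29, 3.58 and 3.41, and Uqcr10 had 6.46, 5.78 and 5.78. Atp5md, listed as Usmg5, had 4.83, 5.02 and 5.04. With the 9 such genes added, the count of genes 2-fold lower at day 7 stayed at 6. Among them Ndufaf5, an assembly factor of complex I, had 0.76, -0.39 and -0.23 and was 2.22-fold lower at day 5.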

How the data were processed

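Total RNA of E14.1 cells was measured on 3 Cy3 Agilent arrays, 1 per day. Per the file headers, the authors used Agilent Feature Extraction 10.5.1.1 for spot extraction, on probe positions of mm9; the deposited intensity values are linear, background-corrected and detrended, but not normalised between arrays. The authors' deposited value table holds log2 values with equal distributions on all arrays (median 7.17 in each column); the step behind this is not stated in the sources used here. Its columns correlated with log2 processed intensity at r = 0.9998 or above, so scale and direction are known; centring by gene was absent.

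Control spots and outlier spots were left out, log2 processed signals were reduced by each array's 75th percentile (processed intensities of 1564, 2051 and 2053 on days 0, 5 and 7), and a gene was represented by the probe well above background on most arrays, then the brightest. None of the gene spots reached saturation. The mark for well above background was required on over 50% of a probe's spots. A gene was compared if well above background on at least 1 array (21652 genes) and called at 2-fold. A dim signal was replaced by the higher of itself and the lowest well-measured value of that array (-6.79, -6.76 and -7.04), giving "at least" folds. The number of arrays limits the precision: with 1 per day no test could be run. The 3 arrays share 1 slide.

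Members and gene lists were chosen with earlier results of these data known. Named were all members past 2-fold, all isoform pairs, the highest and lowest gene of each complex, listed core subunits (1 of them is not reported here), genes with discordant probes, and up to 4 genes per direction from other lists; Cox7c, Cox7b's promoter, Ndufa5, Ndufb4, Uqcr, Uqcrb and the genes under clone names were added after their values were seen. Alternatives were normexp (limma 3.58.1, offset 50, R 4.3.3), array medians, quantile normalisation, the authors' table, other probe and filter rules, and 1.5-fold. Scripts ran in Python 3.11.15 and were tested on simulated data.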

Additional observations from a re-analysis of the deposited data

How the results depend on the processing

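No paired analysis was possible because each day has 1 array and no result comes from a test. With the planned normexp correction, the median of the respiratory chain genes turned from -0.30 to 0.358 at day 5. At day 7 it turned from -0.41 to 0.0837, and between days 5 and 7 it was -0.242. That correction called 1 gene higher at day 5, beside 8.07% of all genes, and 1 between days 5 and 7, beside 29.0%. The correction called 4 genes lower at day 5, beside 44.2% of all genes. Its fit was set by 5 spots on day 0 and 1 on day 7 whose local background far exceeded their signal. A refit without them, chosen after seeing the data, gave -0.31, -0.41 and -0.05. Subtracting array medians gave -0.413 at day 5 and 0.0542 between days 5 and 7, where the median of all genes moved from -0.09 to 0.06. Quantile normalisation gave medians of -0.0315 at day 5 and -0.0651 at day 7 and the authors' table -0.0293 and -0.0752. Each had 2 genes 2-fold lower at day 5 and 2 at day 7, Cox7b2 and Cox8c. Of all genes, 15.3% and 16.5% were 2-fold lower with quantile normalisation and 15.2% and 16.4% in the authors' table. Requiring a signal well above background on all arrays left 2 lower genes at day 5, beside 15.0% of all genes. At 1.5-fold, 1 gene was higher and 15 were lower at day 5, beside 24.0% and 27.6% of all genes. At day 7, 1 was higher and 23 were lower, beside 23.8% and 32.9%. Between days 5 and 7, 2 were lower, beside 16.2%. Cox4i2, near the detection limit, turned to -3.46 at day 5 and to 1.87 between days 5 and 7 with the planned normexp correction. The medians over all probes, without the filter on dim probes, without the assembly factors and with the clone-named genes kept the direction given above. Depth of signal limits Cox4i2, Cox6a2, Cox7b2, Cox8b and Cox8c, whose low values rest on the background estimate.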

Other observations

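Some genes of energy metabolism and of the hypoxia response were higher after day 0, in lists where many others were lower. At day 5, 7 of the 15 hypoxia response genes lay below 0. So did 12 of the 14 assembly factors of complex I and 13 of the 19 electron carriers and coenzyme Q enzymes. Timmdc1, an assembly factor of complex I, had -0.13, 1.53 and 0.02 on days 0, 5 and 7, 3.16-fold higher at day 5 than at day 0. Coq8b, a kinase-like protein of coenzyme Q synthesis, had -1.62, -0.11 and -0.73, 2.84-fold higher at day 5 and 1.85-fold at day 7. Among hypoxia response genes, P4ha1, a collagen prolyl hydroxylase subunit, had -0.65, 0.77 and 2.17, and Vegfa, a growth factor for vessels, had 0.21, 2.26 and 2.08, both higher at the later stages. Egln1, an oxygen sensor, had -2.10, -0.23 and -1.59, with its highest value at day 5. Each is the difference of 2 arrays without a replicate.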
